A study of Mus musculus with 12 samples.

Results

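The genes described here are 9 genes of the MHC class II pathway of antigen presentation, chosen by name for their known roles: H2-Aa, H2-Ab1, H2-Eb1, Cd74, H2-DMa, H2-DMb1, H2-Oa, H2-Ob and Ciita. They are 9 of the 19057 genes with a single symbol on the array, and 16 of its 45281 probes measure them. RNA came from the cochlea, the hearing organ of the inner ear, of C57BL6j mice aged 4, 15 or 45 weeks. C57BL6j is an inbred strain known for early age-related hearing loss. The vestibular organs had been taken away, no group received a treatment, and the ages differed in nothing else that the labels give. Each age had 2 biological replicates, a and b, each of them a pool of 5 (the sources do not say whether of cochleae or of mice), and each pool was hybridised to 2 technical arrays, 12 arrays in all. The pool is the replicate below (n = 2 per age, 6 pools), the arrays of a pool were averaged, and with so few pools the precision of every difference is low. Cochlear identity was checked on Coch, a matrix protein of the inner ear, which lay between 12.71 and 12.83 in the 6 pools. It was also checked on Otos, a protein secreted by cochlear fibrocytes, which lay between 12.52 and 13.26. Both were among the brightest of the 14 cochlear genes listed. Kcnq1, Slc26a5 and Pou4f3 of that list had means of 5.77, 5.67 and 5.81, below the median of all probes (5.87). Levels are given in log2 units as the authors normalized them, so that 1 unit is a doubling, and the median of each array was 5.89.

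Class II molecules carry peptides from proteins taken up by a cell to its surface and show them to CD4 T cells. Dendritic cells, macrophages and B cells make them, and other cells can be induced to do so by interferon gamma. The alpha and beta chains pair in the endoplasmic reticulum with the invariant chain, Cd74, which fills the peptide groove and directs the complex to endosomes. There H2-DM exchanges the remnant of the invariant chain for a peptide, and H2-O, found mainly in B cells, restrains H2-DM. Ciita, a coactivator that does not itself bind DNA, is needed for transcription of these genes through factors bound at conserved promoter elements known as the X and Y boxes. In the ageing cochlea these genes are of interest because macrophages live in the tissue.

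The promoters are shown because the X and Y boxes are what Ciita acts through, and they include genes that varied together between pools (H2-Aa, H2-Eb1) and genes that varied little (H2-Oa, H2-Ob). RefSeq promoter windows (assembly GRCm38.p6, 250 bases before to 50 after each gene start) held an entry for 6 of the 9 genes, all on chromosome 17. H2-Ab1, Cd74 and Ciita are named only. The letters searched, on both strands, were TGATTGG for the Y box, and GNAAC followed after 20 to 30 bases by TGATTGG for the X and Y boxes together, and they were chosen with these sequences in view. In the sequences below, which run 5′ to 3′ in the direction of the gene, capitals mark both matches.
H2-Aa, chr17:34287854-34287933, minus strand: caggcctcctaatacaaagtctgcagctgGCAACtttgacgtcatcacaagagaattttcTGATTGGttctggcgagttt
H2-Eb1, chr17:34305757-34305836, plus strand: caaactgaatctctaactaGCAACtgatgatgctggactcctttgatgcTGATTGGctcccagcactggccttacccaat
H2-DMb1, chr17:34153081-34153160, plus strand: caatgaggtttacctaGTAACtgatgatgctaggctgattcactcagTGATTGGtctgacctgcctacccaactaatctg
H2-Oa, chr17:34092269-34092348, plus strand: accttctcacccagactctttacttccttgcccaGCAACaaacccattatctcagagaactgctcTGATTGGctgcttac
H2-Ob, chr17:34238795-34238874, plus strand: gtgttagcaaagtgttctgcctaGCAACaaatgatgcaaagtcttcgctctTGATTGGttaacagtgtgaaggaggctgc

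The combined pattern was found in 5 of the 6 genes with an entry and in 0.323% of all 32851 windows, and the Y-box letters alone in 7.82% of all windows. Between the matches lay 23 bases in H2-Ob, 25 in H2-Eb1 and 26 in each of H2-Aa, H2-DMb1 and H2-Oa. Neither H2-DMa window held these letters. Genes with the pattern were found both among those that differed widely between pools (H2-Aa, H2-Eb1) and among those that did not (H2-Oa, H2-Ob), as described next. A match is a description of letters, not of a bound site.

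**Figure D1:**
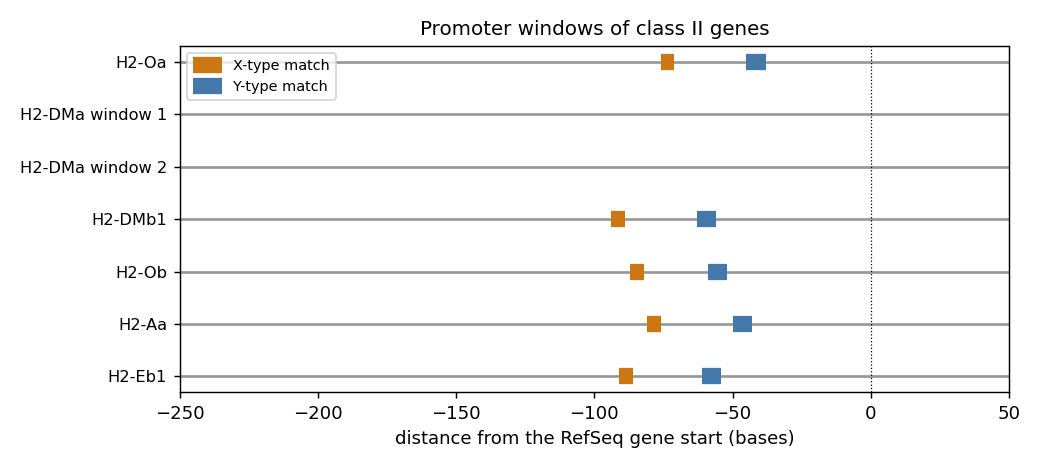
Positions of the X-type (orange) and Y-type (blue) letter matches in the promoter windows of class II genes, as distance in bases from the RefSeq gene start. In the 5 member genes that hold both, 23 to 26 bases separate the matches, and neither H2-DMa window shows any.

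H2-Aa, H2-Ab1 and H2-Eb1, which encode class II chains, and Cd74, the invariant chain, were high in both 4-week pools. They were also high in 1 of the 15-week pools and in 1 of the 45-week pools. In the remaining pools, 15-week pool b and 45-week pool a, they were lower by roughly 1 log2 unit. The order did not follow age. H2-Eb1, the beta chain of the E molecule (probe ILMN_1239102), lay at 10.55 and 10.61 in 4-week pools a and b, at 10.47 and 9.27 in 15-week pools a and b, and at 9.47 and 10.41 in 45-week pools a and b. Its 4 high pools thus spanned 10.41 to 10.61 and its 2 low pools 9.27 to 9.47, with none between. H2-Aa, the alpha chain of the A molecule (ILMN_2734729), lay at 11.50 and 11.55 at 4 weeks, at 11.63 and 10.70 at 15 weeks, and at 10.64 and 11.47 at 45 weeks, in the order a then b.

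H2-Ab1, which encodes the beta chain that pairs with H2-Aa, was measured by 3 probes. The brightest (ILMN_1226525) lay at 11.76 and 11.88 at 4 weeks, 11.81 and 10.74 at 15 weeks, and 10.78 and 11.84 at 45 weeks. ILMN_2913716 ranked the pools into the same high and low sets, with 8.78 and 8.88 in the low pools and 9.76 to 9.96 in the others. ILMN_2631423 did so too, but its arrays of 15-week pool b lay far apart, at 7.82 and 9.12, so its gap is the least certain.

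Cd74, the invariant chain, was likewise measured by 3 probes. ILMN_3089584 lay at 11.24 and 11.27 at 4 weeks, 11.56 and 10.49 at 15 weeks, and 10.52 and 11.68 at 45 weeks. On each of its probes 15-week pool b and 45-week pool a were the lowest pools, and on ILMN_1247832 they lay at 6.54 and 6.64 against 7.29 to 8.22 in the rest.

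H2-DM showed the same order within the older ages with a smaller range. H2-DMa, its alpha chain (ILMN_2866856), lay at 9.15 and 9.24 at 4 weeks, 9.54 and 8.99 at 15 weeks, and 9.05 and 9.62 at 45 weeks, and its other probe (ILMN_2777769) ran from 8.19 in 15-week pool b to 8.87 in 45-week pool b. On ILMN_2866856 the low pools lay just under the 4-week pools, and on ILMN_2777769 45-week pool a (8.41) lay above both 4-week pools (8.32 and 8.33). H2-DMb1, its beta chain, lay at 8.89 and 9.33 at 4 weeks, 8.91 and 8.57 at 15 weeks, and 8.81 and 9.17 at 45 weeks. The closely related H2-DMb2, which is no member, lay at 8.18 in 15-week pool b, 8.23 in 45-week pool a and 8.56 to 8.88 elsewhere, and whether probes of these near-identical genes share signal was not tested.

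H2-O moved little, while Ciita ranged over 0.51 log2 units, against 0.63 for H2-DMa (ILMN_2866856). H2-Oa, the alpha chain of H2-O (ILMN_2773037), stayed within 7.22 to 7.32 over all 6 pools, and H2-Ob, the beta chain, within 6.89 to 7.31. The other H2-Oa probe (ILMN_2867076) ran from 6.70 in 45-week pool a to 6.92 in 4-week pool b. Its next lowest pool was 15-week pool b (6.71), so its low pools were those of the chains, over a small range. Ciita (ILMN_2678211) lay at 6.86 and 6.72 at 4 weeks, 6.72 and 6.44 at 15 weeks, and 6.35 and 6.47 at 45 weeks. Its highest pool was thus at 4 weeks and its lowest at 45 weeks, and among the 15-week pools b was again the lower. A second, dim Ciita probe ran from 5.58 to 5.94, lay at a mean below the median of all probes and was not tested. That leaves 15 member probes from all 9 genes among the 22640 tested. H2-Ea, the alpha chain that would pair with H2-Eb1, also lay below that median, at 5.65 to 5.81; C57BL/6 mice are known to lack E alpha.

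**Figure D2:**
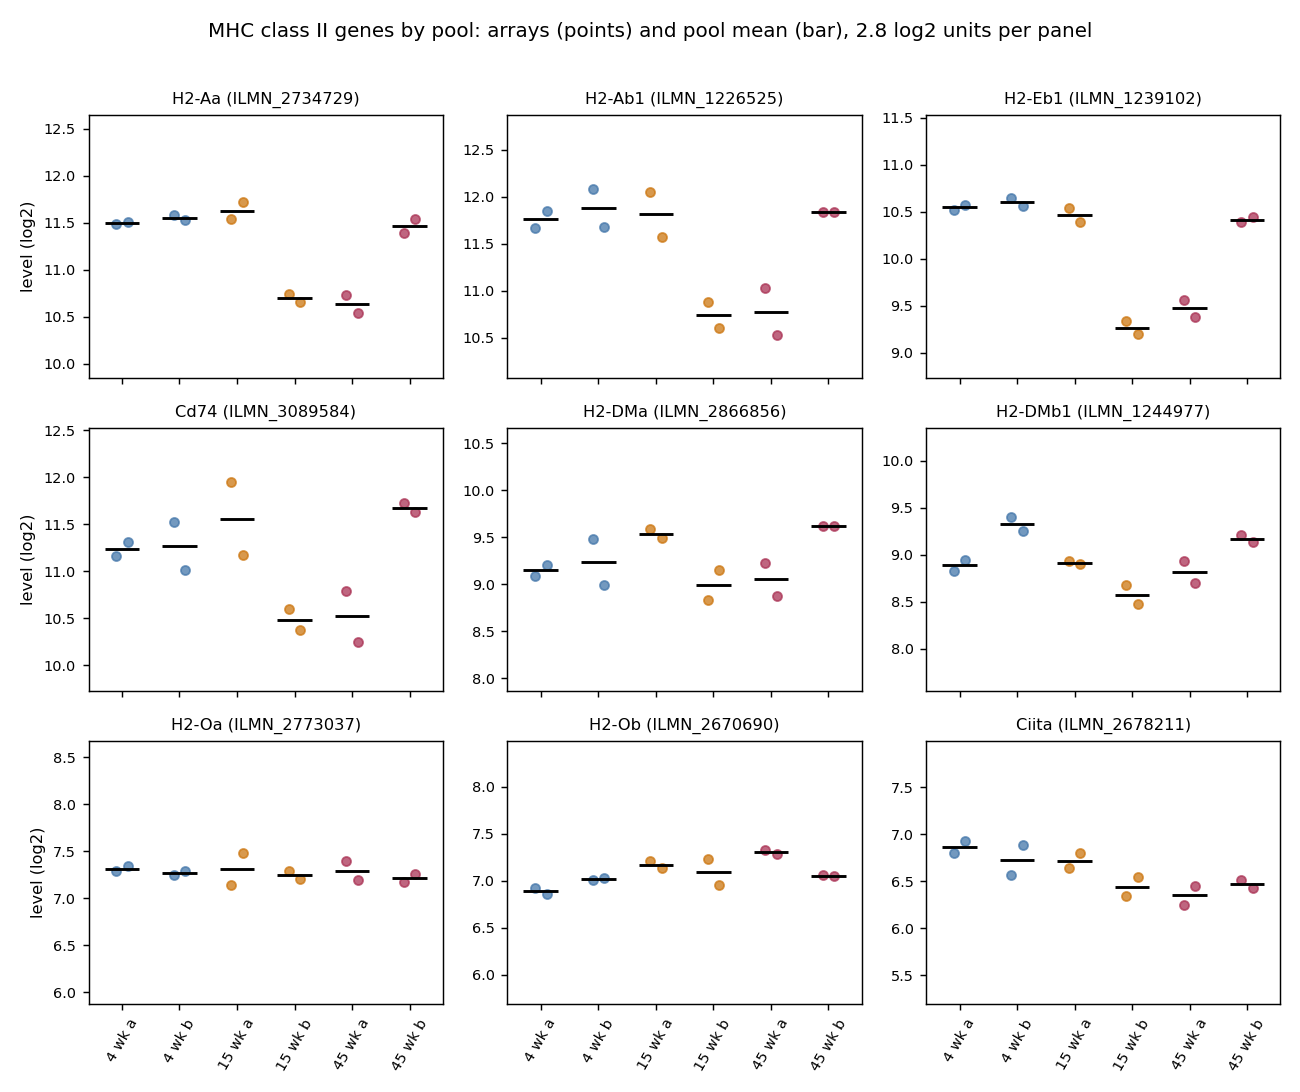
Level (log2) of each class II gene, 1 panel per probe shown, in the 6 pools, with the arrays as points and the pool mean as a bar, every panel spanning 2.8 log2 units. H2-Aa, H2-Ab1, H2-Eb1 and Cd74 are low in 15-week pool b and 45-week pool a and high in the other 4 pools, while H2-Oa and H2-Ob stay nearly level.

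The labels give no difference between the pools of 1 age, and the class II chains were among the probes that differed most between them. At 15 weeks, H2-Eb1 was 2.30-fold higher in pool a than in pool b (1.20 log2 units), a gap larger than that of 99.2% of the tested probes. At 45 weeks pool b was the higher, by 1.92-fold for H2-Eb1, a gap larger than that of 98.1% of probes. At 4 weeks the H2-Eb1 gap was 0.061 log2 units, smaller than that of most probes. For the brightest H2-Ab1 probe the gaps were 1.07 at 15 weeks and 1.06 at 45 weeks, in opposite directions, against 0.12 at 4 weeks. Cd74 (ILMN_3089584) gave 1.07 and 1.16, against 0.027 at 4 weeks.

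The SD between pools of 1 age, pooled over the ages, was 0.62 log2 units for H2-Eb1 and 0.51 for H2-Aa, against a median of 0.14 over the tested probes. H2-Oa (ILMN_2773037) had 0.047, and 4.69% of probes had less, while Ciita had 0.13, close to the median. The SD between arrays of a pool was 0.085 for H2-Eb1 and 0.091 for H2-Aa. It was larger for the other chains, at 0.14 to 0.46 for the 3 H2-Ab1 probes against pool SDs of 0.59 to 1.06, and at 0.32 to 0.51 for the 3 Cd74 probes against 0.64 to 0.83. On Cd74 probe ILMN_1221817 the arrays of 15-week pool a lay at 12.20 and 11.08, as far apart as the pools of that age (11.64 and 10.52).

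At 15 weeks both arrays of pool a lay above both arrays of pool b for 13 of the 15 member probes, from 8 of the 9 genes, whereas 17.2% of all tested probes did so, and the reverse held for 0 member probes against 20.4% of all. At 45 weeks both arrays of pool a lay below both of pool b for 11 member probes, from 6 genes, against 27.9% of all probes, and above for 1, H2-Ob, against 28.6%. At 4 weeks 3 member probes had pool a above (26.2% of all probes) and 4 had it below (26.1%), shares near the background. A gap of at least 0.8 log2 units, in favour of pool a at 15 weeks and turned round at 45 weeks, was found for 128 of the 22640 probes (0.565%). The opposite directions were found for 34 (0.150%). Of the 128, 8 were the probes of H2-Aa, H2-Ab1, H2-Eb1 and Cd74. The direction was read from these same probes, and the limit lies just under their smallest gap, 0.83 for H2-Aa at 45 weeks. That all 8 pass is therefore no test. These gaps compare single pools, and since probes of 1 gene and genes of 1 cell type share their source, the counts are a description. In RNA from whole tissue, fewer class II cells and less class II RNA per cell cannot be told apart.

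**Figure D3:**
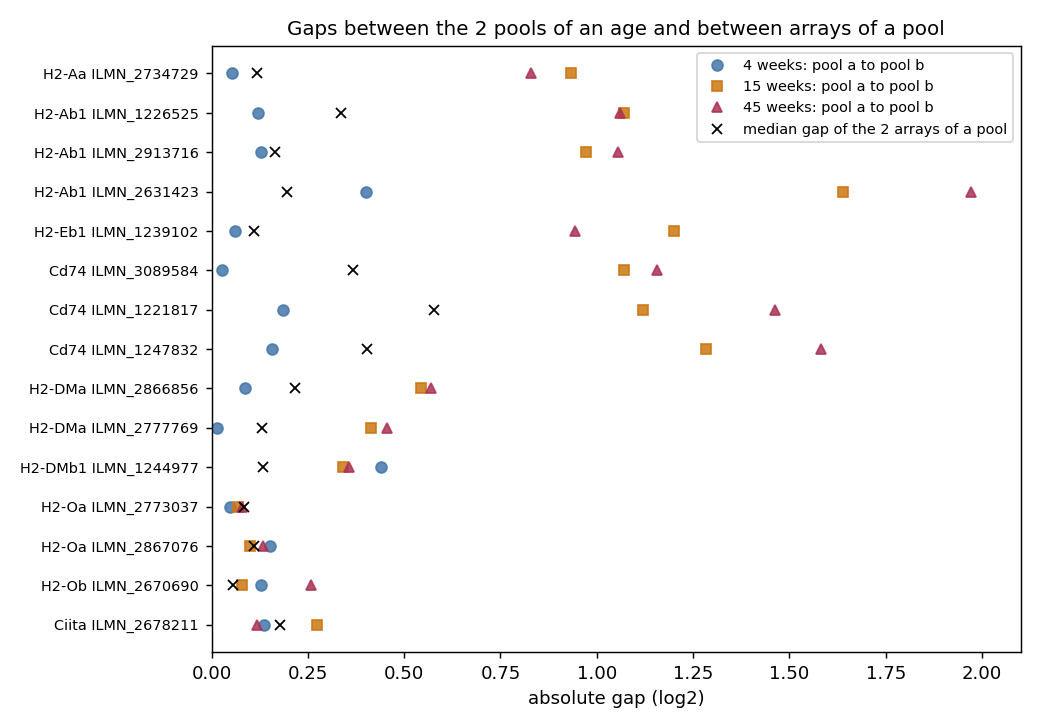
Absolute gap (log2) between the pools of each age for the 15 member probes tested, with the median gap of the 2 arrays of a pool as crosses. For H2-Aa, H2-Ab1, H2-Eb1 and Cd74 the gaps at 15 and 45 weeks run from 0.83 to 1.97 log2 units and the 4-week gaps are smaller.

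The pools also differed by sex-linked genes. Xist, expressed by females, lay at 8.56 in 4-week pool b and 7.60 in 45-week pool b and between 5.85 and 5.95 in the other pools. Eif2s3y, a Y-linked gene, lay at 5.53 in 4-week pool b and 5.65 in 45-week pool b and between 9.54 and 9.81 in the other pools. Neither 15-week pool was thus high in Xist, unlike 1 pool of each other age. Xist was a covariate in 1 alternative fit of the age differences, given below. Beyond that, the part of sex composition in the class II values was not tested.

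No class II gene passed the test between ages. Moderated tests in limma, adjusted over all 22640 probes, called 0 member probes in each of the 3 comparisons, and no other probe either, a background of 0%. From 4 to 15 weeks, H2-Eb1 had means of 10.58 ± 0.043 and 9.87 ± 0.85 (SD, n = 2), a difference of -0.71 with an SE of 0.43 and a 95% interval from -1.73 to 0.30 (limma, adjusted p = 1.00). Leaving out 15-week pool b brought that difference to -0.11 and leaving out pool a to -1.31, so that 1 pool set its size. H2-Aa went from 11.53 ± 0.038 to 11.16 ± 0.66, a difference of -0.36 (SE 0.35). The brightest probe of H2-Ab1 differed by -0.54 (SE 0.42) and that of Cd74 by -0.23 (SE 0.44). With intervals this wide, falls of more than 1 log2 unit in these 4 genes remain within the error, as do rises of 0.3.

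The 4-to-15-week difference was negative for 11 of the 15 member probes, where 50.7% of all probes were lower at the older age, with a median of -0.21 against -0.002 over all. That median became 0.10 without 15-week pool b and -0.55 without pool a. At an unadjusted p under 0.05 there were 0 member probes and 302 probes in all (1.33%). Both older pools lay below both younger pools for 3 member probes, of H2-Ab1, H2-Eb1 and Ciita (13.6% of all probes), and above for 1, of H2-Ob (12.8%). For the 3 lower probes the margin between 15-week pool a and the lower 4-week pool was narrow. The levels were 10.47 against 10.55 for H2-Eb1, 9.76 against 9.83 for H2-Ab1 (ILMN_2913716) and 6.716 against 6.722 for Ciita.

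From 15 to 45 weeks the means of the chains were nearly level, because each age held 1 high and 1 low pool. H2-Eb1 differed by 0.076 (SE 0.43), the brightest H2-Ab1 probe by 0.032 (SE 0.42), Cd74 by 0.076 (SE 0.44) and H2-Aa by -0.11 (SE 0.35). Of the member probes 4 were lower at 45 weeks (50.6% of all probes), the median difference was 0.058, and leaving out a single pool of these ages moved that median to between -0.39 and 0.47. The pools overlapped for every member probe, while 19.9% of all probes had both older pools below and 19.8% both above. No member probe and 1845 of all probes (8.15%) had an unadjusted p under 0.05.

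From 4 to 45 weeks, Ciita gave the smallest p among the members. Its means were 6.79 ± 0.097 and 6.41 ± 0.084 (SD, n = 2), a difference of -0.38 (SE 0.14, 95% interval -0.71 to -0.049) with an unadjusted p of 0.0301 and an adjusted p of 0.317 in limma, where 3137 probes (13.9%) had an unadjusted p under 0.05. Both 45-week pools lay below both 4-week pools. The dim Ciita probe ran the same way, with 5.89 ± 0.082 at 4 weeks and 5.61 ± 0.041 at 45 weeks. H2-Eb1 differed by -0.63 (SE 0.43) and H2-Aa by -0.48 (SE 0.35), each with both older pools below. For both, 45-week pool b came close to the lower 4-week pool, at 10.41 against 10.55 for H2-Eb1 and 11.47 against 11.50 for H2-Aa. Ciita, H2-Eb1 and H2-Aa gave the 3 member probes with both older pools below (22.5% of all probes). Another 2 probes, of H2-DMa and H2-Ob, had both older pools above (22.5%). H2-Ob differed by 0.23 (SE 0.14) and was not called. The difference was negative for 10 of the 15 member probes (50.7% of all), with a median of -0.12, which became 0.063 without 45-week pool a and -0.66 without 45-week pool b.

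**Figure D4:**
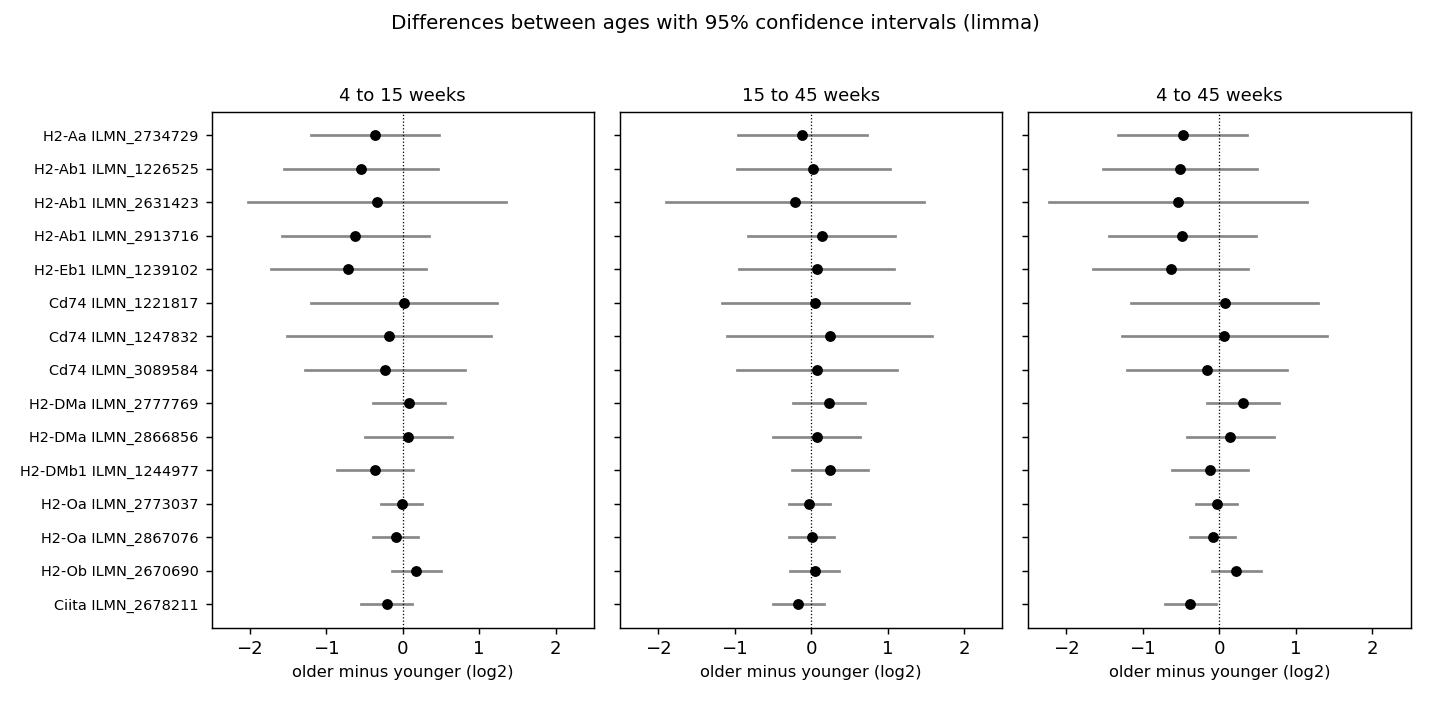
Differences between ages (log2, older minus younger) for the 15 member probes with 95% confidence intervals from limma, 1 panel per comparison. Every interval holds 0 except that of Ciita from 4 to 45 weeks (-0.71 to -0.049), whose adjusted p was 0.317.

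Genes that work beside class II were followed from lists of known function, each gene by its brightest probe, and none of their genes was called between ages. The class II order, with pool a above pool b at 15 weeks and pool b above pool a at 45 weeks, held for 31.8% of all tested probes, and 34.1% had the opposite order. Of the 9 class II genes 7 ran that way and 0 ran opposite. Since the order was read from these same genes, their count is a description and no test. Among the 7 tested genes of endosomal antigen processing, 6 ran that way, with median gaps of 0.24 at 15 weeks and 0.29 at 45 weeks. Ctss, the cathepsin that trims the invariant chain, lay at 9.06 and 9.52 at 4 weeks, 9.95 and 9.04 at 15 weeks, and 8.89 and 9.54 at 45 weeks. Its 4-week pool a was as low as 15-week pool b, which sets it apart from the class II chains. Among the 10 tested interferon gamma signalling genes 4 had the class II order and 2 the opposite, and among the 5 tested costimulation genes 3 and 2. Ifng, Socs1 and Gbp6 of the first list and Cd80 of the second were not above the median of all probes. The 3 tested genes of class II turnover and binding were Marchf1, Marchf8 and Lag3. Of these, 0 had the class II order and 1 the opposite, and Cd4 of that list was not above the median. Lgmn, an endosomal protease, had its lowest values, 9.35 and 9.31, in 15-week pool b and 45-week pool a.

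Markers of the cells that can carry class II moved unequally between the pools. All 14 macrophage and monocyte genes found were tested, 11 ran the class II way and 0 opposite, and their mean level was 8.72 and 8.76 at 4 weeks, 8.82 and 8.63 at 15 weeks, and 8.54 and 8.87 at 45 weeks. Csf1r, the receptor for the macrophage growth factor, lay at 8.87 and 9.47 at 4 weeks, 9.61 and 8.93 at 15 weeks, and 8.90 and 9.93 at 45 weeks. C1qc, a complement subunit made by macrophages, gave 9.23 and 9.69, 9.84 and 9.16, and 9.32 and 10.13 in the same order. For both, 4-week pool a was as low as the class II low pools. Cd163 was the 1 gene of this list with pool b higher at 15 weeks. Its 15-week gap, pool a minus pool b, was the largest of the list in size (-1.17) and ran against the class II order. Its 45-week gap was -0.063, so it counted in neither direction. Lyz2 and Aif1 were higher in pool a at 15 and at 45 weeks and also counted in neither. Of 7 tested B cell genes, 1 (Fcer2a, an IgE receptor) ran the class II way and 4 opposite, and the mean over the 9 found was 7.29 and 7.23 at 4 weeks, 7.40 and 7.46 at 15 weeks, and 7.44 and 7.19 at 45 weeks. Cd79b, part of the B cell receptor, lay at 10.54 in 15-week pool b and 10.64 in 45-week pool a, its 2 highest pools. Pax5 and Cr2, B cell markers, lay below the median of all probes.

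Dendritic cell markers were mostly dim. Of 11 found, 6 were tested, with 2 running the class II way and 1 opposite and a list mean between 6.39 and 6.53 in the 6 pools. The 2 were the brightest of the list, Irf8 (mean 9.20) and Clec10a (8.08), and the opposite one was Zbtb46 (6.16). Irf8 lay at 9.08 and 8.97 at 4 weeks, 9.34 and 9.13 at 15 weeks, and 9.33 and 9.36 at 45 weeks. Its 45-week gap, pool a minus pool b, was only -0.0305. Its lowest pool was 4-week pool b, unlike the class II chains. Clec10a lay at 8.22 and 7.88 at 15 weeks and at 7.62 and 8.13 at 45 weeks, in the order a then b. Itgax, Flt3, Xcr1, Clec9a and Cd209a were not above the median of all probes. The 8 general leukocyte genes had 3 with the class II direction and 1 opposite, with a mean between 10.64 and 10.91, and the 5 tested T cell genes had 3 and 1, with a mean of all 7 found between 6.45 and 6.68. All 6 skeletal muscle genes, listed to check for other tissue, were higher in pool b at every age and so did not follow the class II order. Of the 7 tested airway epithelium genes, 4 ran the class II way and 0 opposite. Their median gaps, pool a minus pool b, were 0.32 at 15 weeks and -0.12 at 45 weeks. Both 45-week pools also held pituitary hormone transcripts, whose 4 genes averaged 9.07 and 9.87 there and 5.62 to 6.10 in the younger pools. Laptm5, a lysosomal protein of leukocytes, had levels of 12.97 and 12.96 in the 45-week pools against 13.42 to 13.82 in the younger pools, and was not called. The part of any cell type or other tissue in the class II values was not tested.

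**Figure D5:**
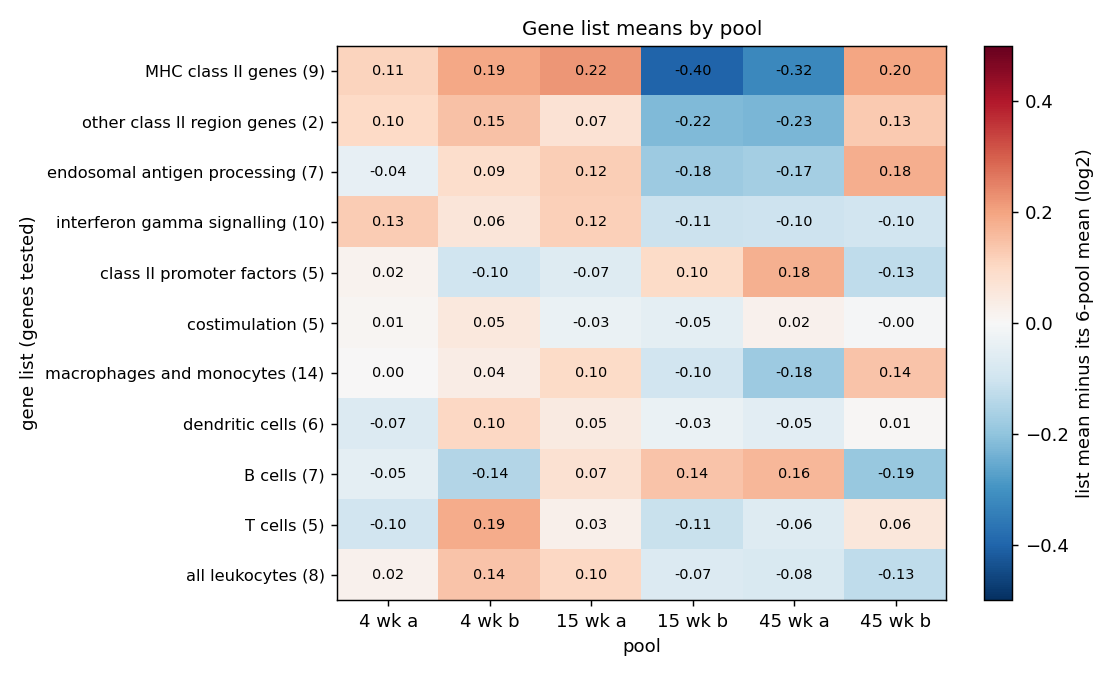
Mean level of the gene lists shown in each pool minus the list's mean over the 6 pools (log2, colour), with the number of genes tested. The class II turnover and binding list is not shown. The class II list falls to -0.40 in 15-week pool b and -0.32 in 45-week pool a, where the macrophage list falls to -0.097 and -0.18 and the B cell list lies at 0.14 and 0.16.

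Genes whose level followed the class II chains were ranked by Pearson correlation over the 6 pools with the mean of the brightest H2-Aa, H2-Ab1, H2-Eb1 and Cd74 probes, which ran from 10.30 in 15-week pool b to 11.37 in 15-week pool a. All genes share the same 6 pools, of which 2 stand apart, so the ranking is a description: 2.05% of tested probes exceeded 0.9 and 2.41% lay under -0.9. First came Gbp2, a GTPase induced by interferon gamma (r = 0.992), at 9.21 and 9.42 at 4 weeks, 9.32 and 8.41 at 15 weeks, and 8.51 and 9.34 at 45 weeks. Of the 10 tested interferon gamma signalling genes, Gbp2 among them, 1 exceeded 0.9 and the median r was 0.37. Prph, the peripherin filament of peripheral neurons (r = 0.989), ran from 8.22 in 45-week pool a to 9.70 in 15-week pool a. Oasl2, an interferon-induced gene, ran with r = 0.988 from 9.47 to 10.27, and Cltc, the clathrin heavy chain, with r = 0.988 from 6.06 to 6.57. Bbs1, Lrrc18, Eml1 and Clec4b1 completed the first 8, at r of 0.986 to 0.990, and Bbs1 did so over a range of only 5.89 to 5.97. Of the members outside the mean, H2-DMb1 had an r of 0.76, Ciita 0.73 and H2-Ob -0.55. Probes of 1 gene gave unlike values, with 0.76 and 0.53 for the brighter and dimmer H2-DMa probes and 0.087 and 0.81 for those of H2-Oa.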

How the data were processed

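RNA levels were measured in 6 pools of mouse cochlea on 12 Illumina arrays. The deposited values are log2 levels, and the authors had normalized them between arrays, which follows from the values, since the sorted columns of all arrays are identical; the background correction is not stated in the sources used here. Such normalization hides a shift shared by most transcripts. A second deposited table with 12 value and 12 detection columns, whose names match no label, was not used, so detection above background was not assessed. Probe names came from the platform annotation (1 symbol for 34885 probes, several for 18, none for 10378).

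Arrays of a pool were averaged, and probes with a mean above the median of all (5.87) were tested in 1 model over the 3 ages with limma 3.58.1 (R 4.3.3; 3 residual and 3.84 prior degrees of freedom), with Benjamini-Hochberg adjustment over 22640 probes and a threshold of 0.05. The fit was tested on simulated data. P-values set the difference between age means against the spread between pools, moderated over all tested probes. The members and lists were chosen with earlier results of these data known. The naming rule took every member probe, the 8 genes most correlated with the chains, up to 4 genes of each list with the largest difference, sex-linked genes and cochlear markers. Other list genes given as examples were chosen after their values were seen. Alternatives were other filters, the pool as a random block, single arrays, the replicate letter as a block, the 2 ages alone, a trended robust eBayes, array weights, Xist as a covariate and each pool left out.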

Additional observations from a re-analysis of the deposited data

How the results depend on the processing

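No member probe was called under any of the 17 alternatives, and the smallest adjusted p of a member in limma ran from 0.163 to 0.862 for 4 to 45 weeks, 0.426 to 0.974 for 15 to 45 weeks and 0.9998 to 1.00 for 4 to 15 weeks. Over all probes, against 0 calls in each comparison, a random block for the pool over all 12 arrays called 2 from 4 to 15 weeks, 6 from 15 to 45 weeks and 183 from 4 to 45 weeks. The second technical array alone called 1 probe from 15 to 45 and 1 from 4 to 45 weeks, a trended robust eBayes 2 and 2, and the 2 ages alone 1 from 4 to 45 weeks. Leaving out each pool in turn called 0 to 12 probes from 15 to 45 weeks and 0 to 12 from 4 to 45 weeks, the lone pool being assumed to vary like the others. The gaps between pools a and b correlated across probes at -0.11 for 4 and 15 weeks, -0.39 for 15 and 45 weeks and 0.18 for 4 and 45 weeks, so the letters were not taken to pair pools. The replicate letter as a block called 0 probes in each comparison, and with the 15-week letters crossed, which was chosen after seeing the data, 1, 1 and 2. The cause of these differences was not tested. Of the 15 member probes, 3 to 9 changed the sign of their difference from 15 to 45 weeks when a pool of these ages was left out, and 6 with Xist as a covariate. With Xist as a covariate the member medians were -0.045, -0.042 and -0.054. Signal over background could not be set against any value.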

Other observations

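Of 7 genes for factors that bind the class II promoter, 5 were tested, Rfxap, Rfxank, Nfyb, Nfyc and Creb1. These 5 were lower in pool a at 15 weeks and higher in pool a at 45 weeks, with median gaps of -0.16 and 0.18, where 34.1% of all tested probes ran that way. The 15-week gaps of Rfxap (-0.031) and Rfxank (-0.025) were smaller in size than the median gap of all tested probes, 0.15. So were the 45-week gaps of Rfxap (0.038) and Nfyc (0.087), where that median was 0.175. The correlation of the 5 with the class II chains over the 6 pools ran from -0.46 to -0.69. Nfyb, a subunit of the Y-box factor, lay at 9.07 and 8.36 at 4 weeks, 8.54 and 8.86 at 15 weeks, and 8.86 and 7.89 at 45 weeks. Rfx5 and Nfya were not above the median of all probes. Ifngr2, a subunit of the interferon gamma receptor, was highest in the pools where the chains were lowest, at 9.55 in 15-week pool b and 9.73 in 45-week pool a against 8.71 to 8.96 elsewhere. Rfxap, which takes part in the X-box complex, differed by 0.53 from 4 to 45 weeks (SE 0.11, limma, unadjusted p = 0.00205, adjusted p = 0.271), with levels of 8.34 and 8.29 at 4 weeks and 8.86 and 8.83 at 45 weeks. These genes were singled out after their values were seen.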
